A study of Mus with 8 samples.

Results

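The genes described here encode NRF2, the transcription factor product of Nfe2l2, and 9 antioxidant enzymes: Gclc, Gclm, Txnrd1, Srxn1, Nqo1, Hmox1, Sod1, Sod2 and Gpx1. They were chosen by name as NRF2 targets and antioxidant enzymes, 10 of the 54532 genes in the deposited table, and all 10 were among the 11729 genes with enough counts to be tested. Liver mRNA was sequenced from mice given 2.5% dextran sulfate sodium (DSS), a polysaccharide that injures the colonic epithelium, until day 6, when feeding with the diets began, per the series' design text. One group of 4 libraries is labelled DSS (15, 48, 49 and 50). The other group of 4 is labelled DSS, high-fat diet and alcohol (35, 45, 65 and 71) and is called diet-alcohol here. DSS is therefore common to both groups, no group without it was analysed here, and diet cannot be told apart from alcohol. Strain, age and the feed of the DSS group are not given in the labels. Nor do they state that each library is a separate mouse, so the p-values rest on variation among libraries that may be technical.

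NRF2 is held in the cytosol by its partner KEAP1, which directs it to degradation. Oxidants and electrophiles disable KEAP1, and NRF2 then enters the nucleus, pairs with small MAF proteins and binds antioxidant response elements beside genes for glutathione synthesis, the thioredoxin system and detoxifying enzymes. Because this control acts on the protein, the level of the Nfe2l2 transcript need not follow NRF2 activity. Hepatocytes carry a large share of the body's glutathione synthesis and of its alcohol oxidation. Sod1, Sod2 and Gpx1 are antioxidant enzymes with high basal expression that also answer to other signals, Sod2 in particular to inflammatory ones.

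Libraries held 12502300 to 16967839 counts, of which mitochondrially encoded transcripts took 55.8 to 79.1% in the DSS group and 30.2 to 73.0% in the diet-alcohol group. Library 35 stood apart: genes with 1 to 9 counts numbered 784 there and 4319 to 4987 elsewhere, and its log2 CPM correlated at no more than 0.819 with any of them, as a description over the tested genes. The tissue label fitted the hepatocyte markers, which summed to 43659 to 69155 CPM (counts scaled to a common library size) in the DSS group and 25702 to 32927 CPM in the diet-alcohol group, without overlap. None of the 8 markers passed the test. Albumin (Alb) made up most of each sum; the other 7 summed to 13318 to 18899 and 9529.7 to 12317 CPM, and Tf (transferrin) lay the other way, at 719 to 1019 and 1329 to 1932 CPM. In bulk tissue, fewer cells of a type and less RNA per cell cannot be told apart.

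None of the 10 genes passed the threshold of 0.05 on the adjusted p of edgeR's quasi-likelihood test, where 1.26% of all tested genes did (0.588% with a higher level under diet and alcohol, 0.674% with a lower one). DESeq2, limma-voom and limma on FPKM also called none, and 3 genes had an unadjusted p under 0.05, namely Gclc, Hmox1 and Sod2, against 11.7% of all tested genes. The log2 fold change was positive for 7 genes and negative for 3, with a median of 0.33 against -0.01 over all tested genes. The values of the groups overlapped for each of the 10 genes; 8.77% of tested genes had no overlap (4.14% higher and 4.63% lower). In the authors' deposited table the lowest adjusted p among the 10 was 0.136, for Gclc, where 2.08% of the genes listed with an adjusted p were under the threshold. The deposited log2 fold changes and adjusted p of the 10 matched those of the DESeq2 fit above, so they add no separate result. For Nfe2l2, Txnrd1, Sod1 and Gpx1 the 95% interval of the difference held no change as large as 2-fold in either direction, whereas for the other 6 it did.

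**Figure D1:**
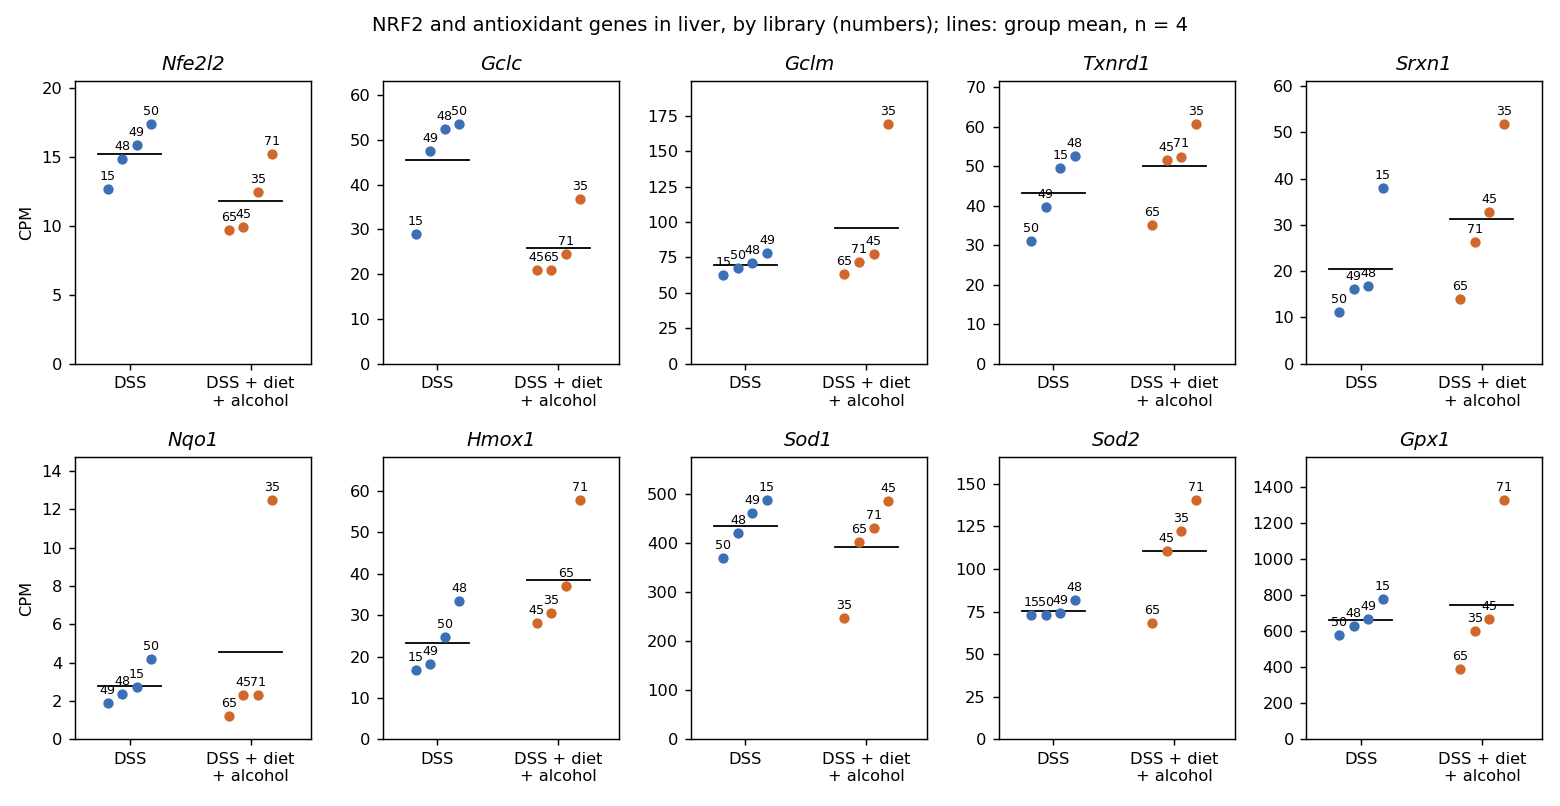
CPM of each gene on the vertical axis, starting at 0, with 1 point per library (numbered), ordered by value within the DSS group (blue) and the group that also had high-fat diet and alcohol (orange); lines are means of 4 libraries. The groups overlap in every panel; library 35 is far above the others for Nqo1 (12.5 CPM) and Gclm (169 CPM), and library 71 for Gpx1 (1328 CPM).

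The transcription factor gene Nfe2l2 (ENSMUSG00000015839, chromosome 2, 75675513 to 75704641, minus strand, GRCm38) was present at moderate level. It had 12.7, 14.9, 15.9 and 17.4 CPM in DSS libraries 15, 48, 49 and 50, and 12.5, 9.96, 9.72 and 15.2 CPM in diet-alcohol libraries 35, 45, 65 and 71. Libraries 35, 45 and 65 lay below the lowest DSS value, whereas that of library 71 lay within the DSS range. The log2 fold change was -0.36 ± 0.23 (SE; edgeR adjusted p = 0.623), with a 95% interval from -0.86 to 0.14.

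Glutathione synthesis starts with glutamate-cysteine ligase, in which Gclc encodes the catalytic subunit and Gclm the modifier subunit that raises its efficiency. Gclc (ENSMUSG00000032350, chromosome 9, 77754535 to 77794485, plus strand) had 28.9, 52.5, 47.4 and 53.5 CPM in the DSS libraries, in the order above, and 36.8, 20.9, 20.9 and 24.6 CPM in the diet-alcohol libraries. DSS 15 and diet-alcohol 35 made the groups overlap; the other 3 diet-alcohol values lay below each DSS value. The log2 fold change was -0.82 ± 0.27 (edgeR adjusted p = 0.211; 95% interval -1.41 to -0.23), a 1.77-fold lower fitted level, from a mean of 45.6 ± 11.4 to 25.8 ± 7.54 CPM (SD, n = 4), that ranked at percentile 7.96 of all tested genes. Without library 35 Gclc passed, at -1.04 (edgeR adjusted p = 0.0304), and that was the only member called in any of the 19 alternatives, where its adjusted p otherwise ran up to 0.538.

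Gclm (ENSMUSG00000028124, chromosome 3, 122245557 to 122270732, plus strand) had 62.8, 70.8, 78.4 and 67.2 CPM in the DSS libraries and 169, 77.6, 63.6 and 71.8 CPM in the diet-alcohol libraries. Apart from library 35, the diet-alcohol values stayed within the DSS range. Its log2 fold change of 0.45 ± 0.30 (edgeR adjusted p = 0.641) became 0.03 when library 35 was left out.

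The balance of the subunits was compared within each library, which cancels the scaling between libraries; this ratio was chosen after the values were seen and is given without a test. Per length (FPKM), Gclc over Gclm was 0.770, 1.24, 1.01 and 1.33 in DSS libraries 15, 48, 49 and 50. It was 0.364, 0.449, 0.548 and 0.571 in diet-alcohol libraries 35, 45, 65 and 71. All 4 diet-alcohol ratios lay below the lowest DSS ratio. The mean log2 ratio was 0.09 ± 0.354 in the DSS group and -1.07 ± 0.299 in the diet-alcohol group (SD, n = 4 each), a difference of -1.16 that ran from -1.32 to -1.03 when each library was left out. In library 35 the low ratio came with the highest Gclm, and in 45, 65 and 71 with Gclc below the DSS values.

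**Figure D2:**
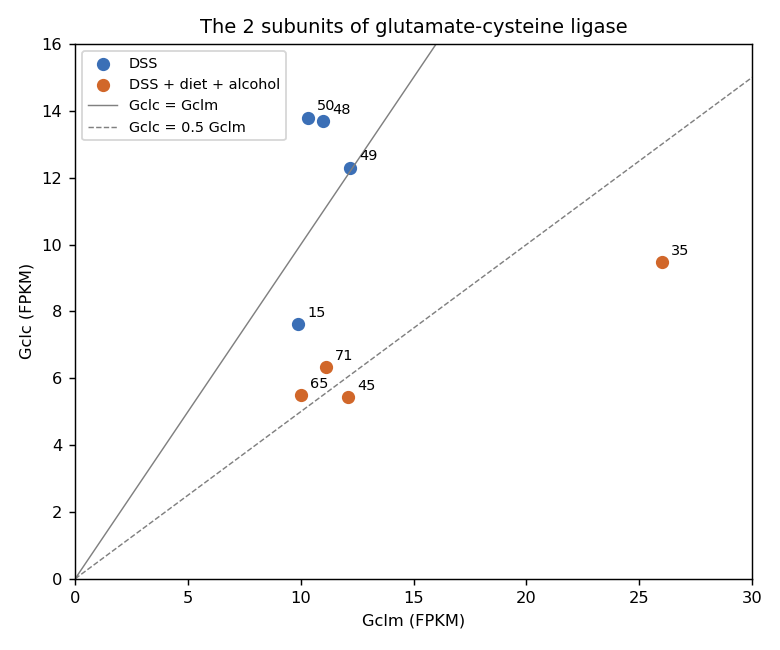
FPKM of Gclc (vertical axis) against FPKM of Gclm (horizontal axis), 1 point per library, with lines where the values are equal and where Gclc is 0.5 of Gclm. DSS libraries lie near or above the line of equality except 15; the diet-alcohol libraries lie near or below the 0.5 line, with ratios from 0.364 to 0.571.

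In the thioredoxin system, Txnrd1 encodes the cytosolic selenoenzyme thioredoxin reductase, and Srxn1 encodes sulfiredoxin, which restores overoxidized peroxiredoxins. Txnrd1 (ENSMUSG00000020250, chromosome 10, 82833951 to 82897712, plus strand) had 49.6, 52.6, 39.8 and 31.0 CPM in the DSS libraries and 60.7, 51.6, 35.1 and 52.5 CPM in the diet-alcohol libraries. The groups covered nearly the same range, and the log2 fold change was 0.21 ± 0.24 (edgeR adjusted p = 0.813). Srxn1 (ENSMUSG00000032802, chromosome 2, 152105516 to 152111376, plus strand) varied more, with 38.0, 16.9, 16.1 and 11.2 CPM in the DSS libraries and 51.8, 32.8, 13.9 and 26.4 CPM in the diet-alcohol libraries. Within the DSS group it spanned 3.40-fold, from DSS 50 to DSS 15, and within the diet-alcohol group 3.72-fold, from 65 to 35. Its log2 fold change was 0.60 ± 0.43 (edgeR adjusted p = 0.673; 95% interval -0.35 to 1.55). It was 1.08 without DSS 15 and 0.24 without library 35, neither past the test (adjusted p = 0.312 and 0.860; 0.312 to 0.981 over the 19 alternatives).

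Nqo1 encodes a quinone reductase and is a widely used readout of NRF2 activity. Nqo1 (ENSMUSG00000003849, chromosome 8, 107388225 to 107403206, minus strand) was scarce: 44, 34, 16 and 28 counts in the DSS libraries and 224, 56, 11 and 58 counts in the diet-alcohol libraries. In CPM these were 2.74, 2.38, 1.92 and 4.17 against 12.5, 2.30, 1.21 and 2.30. Library 35 alone lay above the DSS range, and library 65 lay below it; the 11 counts of library 65 have an exact 95% Poisson interval of 5.49 to 19.7, for counting error only. The log2 fold change of 0.73 ± 0.66 (edgeR adjusted p = 0.754; 95% interval -0.73 to 2.18) turned to -0.48 without library 35. With all 8 libraries it was 0.32 with limma-voom, and 0.20 and 0.17 with limma on FPKM.

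Hmox1 encodes heme oxygenase, which opens the heme ring and is also expressed by macrophages that take up red cells. Hmox1 (ENSMUSG00000005413, chromosome 8, 75093621 to 75100589, plus strand) had 16.8, 33.5, 18.2 and 24.6 CPM in the DSS libraries and 30.6, 28.1, 37.1 and 57.8 CPM in the diet-alcohol libraries. Only DSS 48 reached into the diet-alcohol range, where library 71 was highest. The log2 fold change was 0.72 ± 0.30 (edgeR adjusted p = 0.358; 95% interval 0.07 to 1.38), or 0.45 without library 71 and 0.95 without DSS 48. The means were 23.3 ± 7.63 CPM and 38.4 ± 13.5 CPM (SD, n = 4). Kupffer cell markers, 10 of 10 matched and none at 0 in all libraries, summed to 235 to 369.9 CPM in the DSS group and 369 to 694 CPM in the diet-alcohol group. Of the 10, 1 passed the test with a higher level, as did 0.588% of all tested genes. The highest sum, in library 71, rested on Marco, a scavenger receptor, at 403 CPM there; without Marco library 71 summed to 291 CPM, within the DSS range of 227 to 357 CPM, and library 65 was highest at 597 CPM. Clec4f, a defining Kupffer cell gene, was lowest in library 71, at 20.6 CPM against 58.4 to 96.4 CPM in the DSS group. Cd5l, the Kupffer cell marker with the highest mean level, lay the other way, at 136 CPM there against 56.4 to 119 CPM. Monocyte and macrophage markers summed to 19.1 to 41.1 and 27.2 to 85.0 CPM; library 71 was highest through Lyz2 (70.3 CPM), and without Lyz2 library 65 was, at 20.7 CPM against 14.7 CPM in library 71. These sums without 1 gene were chosen after the values were seen. Their part in the Hmox1 values was not tested.

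Sod1 and Sod2 encode the cytosolic and the mitochondrial superoxide dismutase, which turn superoxide into hydrogen peroxide, and Gpx1 encodes the selenoenzyme that reduces that peroxide with glutathione. Sod1 (ENSMUSG00000022982, chromosome 16, 90220754 to 90226329, plus strand) had 488, 421, 461 and 369.7 CPM in the DSS libraries and 248, 485, 402 and 431 CPM in the diet-alcohol libraries. Library 35 was the lowest of the 8, and the other 3 lay within the DSS range (log2 fold change -0.15 ± 0.25, edgeR adjusted p = 0.875; 0.01 without library 35). The end of Sod1 overlaps Scaf4 on the other strand by 650 bases; Scaf4 held 703 counts against 50868 for Sod1, or 1.38%.

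Sod2 (ENSMUSG00000006818, chromosome 17, 13006846 to 13040063, plus strand) was the least variable member in the DSS group, with 72.8, 81.8, 74.3 and 73.0 CPM. The diet-alcohol libraries had 122, 110.5, 68.1 and 140.5 CPM, so libraries 35, 45 and 71 lay above each DSS value and library 65 below. The log2 fold change was 0.55 ± 0.24 (edgeR adjusted p = 0.389; 95% interval 0.03 to 1.07), 0.72 without library 65 (adjusted p = 0.105, the lowest of the 19 alternatives, which reached 0.935) and 0.15 with the mitochondrial share as a covariate. Neutrophil markers, 10 of 10 matched and none at 0 in all libraries, summed to 4.19 to 15.5 CPM in the DSS group and 29.4 to 62.3 CPM in the diet-alcohol group (exact two-sided permutation p = 0.0286, the smallest that 70 assignments allow). The same test gave 0.0286 for the hepatocyte sum, which was lower, 0.0571 for Kupffer cells and 0.114 or more for the other cell types examined. These p-values were not adjusted for the number of marker lists. The neutrophil sum was highest in library 65, where Sod2 was lowest. Only 4 of the 10 neutrophil markers had enough counts to be tested. Of these 4, 3 passed with a higher level, as did 0.588% of all tested genes. In library 35, 7 of the 10 were at 0 counts, Csf3r among them, so that its sum came from S100a8, S100a9 and Retnlg. The part of neutrophil RNA in the Sod2 values was not tested.

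Gpx1 (ENSMUSG00000063856, chromosome 9, 108338903 to 108340343, plus strand) had 776, 626, 665 and 581 CPM in the DSS libraries and 601, 667, 392 and 1328 CPM in the diet-alcohol libraries. Library 71 was the highest of all 8 and library 65 the lowest, a 3.38-fold span within a group against 1.34-fold among the DSS libraries. The fitted log2 fold change was 0.17 ± 0.34 (edgeR adjusted p = 0.903). It was 0.02 with limma-voom and, in the edgeR fit, -0.26 without library 71. Erythroid markers, which mark cells that also hold much Gpx1, summed to 2247 CPM in DSS 15 and 174 to 277 CPM in the other DSS libraries, and to 398 to 808 CPM in the diet-alcohol libraries. DSS 15 had the highest Gpx1 of its group, at 776 CPM, but among the diet-alcohol libraries the erythroid sum was highest in 35 (808 CPM), where Gpx1 was 601 CPM, and was 676 CPM in 71, where Gpx1 was highest. The part of erythroid RNA was not tested.

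Expression levels of the genes were compared per length. In the DSS group Gpx1 was highest, at 450.2 ± 61.0 FPKM, then Sod1 at 107 ± 13.5 FPKM (SD, n = 4). Hmox1 (13.0), Gclc (11.8) and Gclm (10.9) followed with overlapping ranges, then Sod2 (7.38), Srxn1 (7.15) and Txnrd1 (5.98), whose neighbours in that order also overlapped. Nfe2l2 (3.93) and Nqo1 (1.77) were lowest and did not overlap with each other. In the diet-alcohol group Gpx1 at 506 ± 271 FPKM and Sod1 at 96.6 ± 25.3 FPKM were again the first 2. Gclc moved from rank 4 in the DSS group to rank 8, at 6.69 FPKM, where its range still overlapped with that of Txnrd1 at 6.90 FPKM. The deposited length of Sod2, 10008 bases, is the longest of the 10 and lowers its FPKM. The order by FPKM depends on the deposited lengths of the other genes too. Txnrd1 had 7086 bases, Gclm 6291, Sod1 3970 and Gpx1 1441, the shortest. In CPM, which takes no account of length, the DSS means of Gpx1 and Sod1 were 662 and 435.

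High and low values were shared by several genes in single libraries. Among the diet-alcohol libraries, 35 had the highest value for 5 genes (Gclc, Gclm, Txnrd1, Srxn1 and Nqo1) and 71 for 4 (Nfe2l2, Hmox1, Sod2 and Gpx1), while 65 had the lowest value for 7. Over all tested genes, library 35 was the highest of the 4 for 31.1%, 71 for 21.9%, and 65 the lowest for 26.8%. Nqo1 in library 35 was 6.34-fold above the mean log2 level of the other 3, at percentile 99.8 of the same deviation over all tested genes. Gclm, at 2.38-fold, and Srxn1, at 2.25-fold, were at percentiles 93.4 and 92.2. Hmox1 in that library was at percentile 41.5, Gpx1 at 45.9 and Sod1 at 29.7. In library 65, Nqo1 was at percentile 1.37, Srxn1 at 2.76 and Gpx1 at 5.82.

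**Figure D3:**
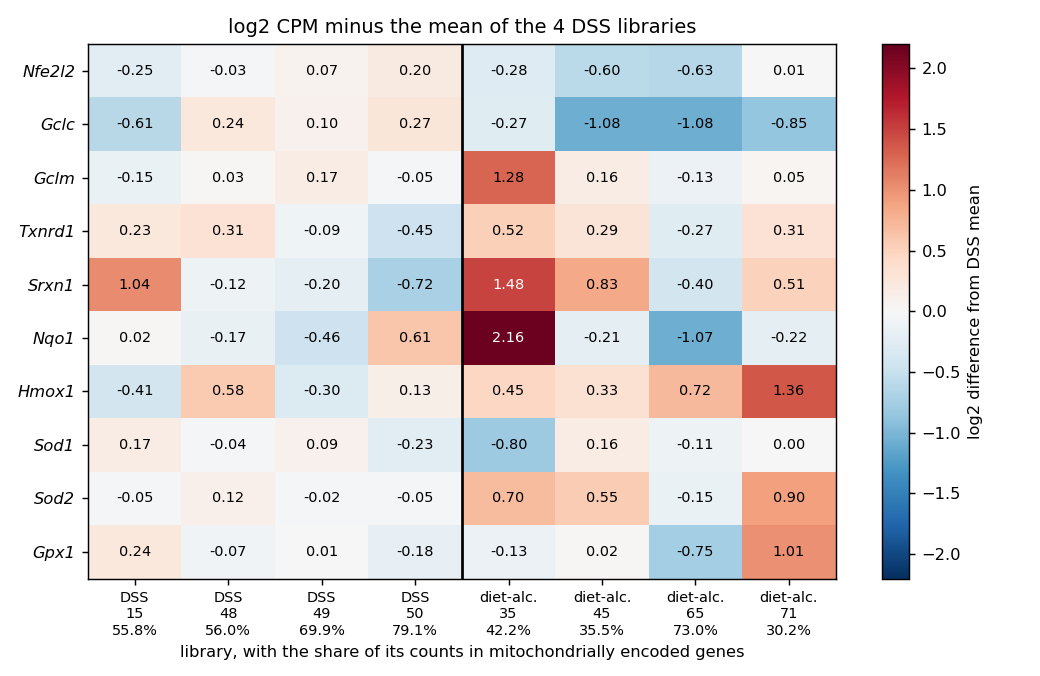
Difference in log2 CPM from the mean of the 4 DSS libraries, for each gene (rows) and library (columns, with the percent of counts from mitochondrially encoded genes). Library 35 shows the highest values for Nqo1 (2.16), Srxn1 (1.48) and Gclm (1.28) beside the lowest for Sod1 (-0.80), and Gclc is below the DSS mean in all 4 diet-alcohol libraries.

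Libraries with a high or a low mitochondrial share had low values for some genes and high values for others. Library 65 had the highest share of its group, 73.0%, and the lowest value for 7 of the 10 genes, and DSS 50 had the highest share of all, 79.1%, and the lowest DSS value for Txnrd1, Srxn1, Sod1 and Gpx1. DSS 50 also had the highest DSS value for Nfe2l2, Gclc and Nqo1. DSS 15, with the lowest DSS share, 55.8%, had the lowest DSS value for Nfe2l2, Gclc, Gclm, Hmox1 and Sod2 and the highest for Srxn1, Sod1 and Gpx1. DSS 48, at nearly the same share, 56.0%, had the highest DSS value for Txnrd1, Hmox1 and Sod2. Its Hmox1 was 33.5 CPM against 16.8 CPM in DSS 15, and its Gclc 52.5 against 28.9 CPM. The mean share was 65.2% ± 11.4 in the DSS group and 45.2% ± 19.2 in the diet-alcohol group (SD, n = 4; exact two-sided permutation p = 0.143). With the share as a covariate, Gpx1 went from 0.17 to -0.50, Srxn1 from 0.60 to -0.12 and Txnrd1 from 0.21 to -0.17 on the log2 scale. Gclc went from -0.82 to -0.80 (edgeR adjusted p from 0.211 to 0.538) and Hmox1 from 0.72 to 0.59 (from 0.358 to 0.693). None passed the test in that fit, in which 55 genes did.

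**Figure D4:**
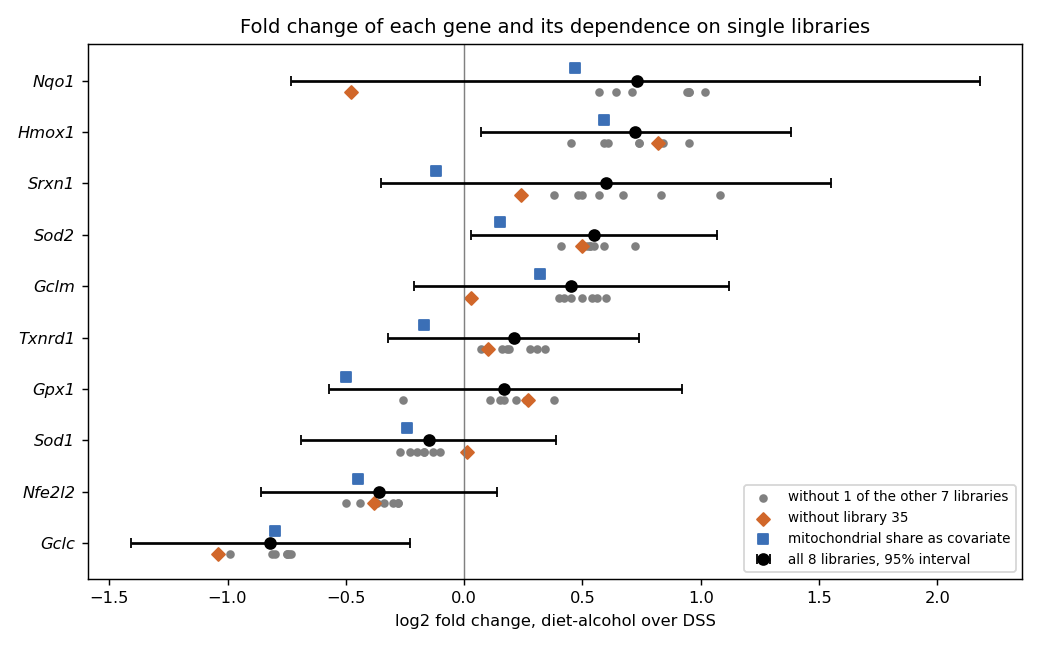
Log2 fold change of each gene, diet-alcohol over DSS (horizontal axis): black points with the 95% interval of the fit to all 8 libraries, grey points and orange diamonds with 1 library left out, blue squares with the mitochondrial share as a covariate. Nqo1 and Gclm move most without library 35, to -0.48 and 0.03, and Gclc is negative in every fit, from -1.04 to -0.73.

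Other genes of the pathway were taken from lists set by function. Of 66 genes listed, 61 were tested: 1 fell, none rose and 60 did not pass (median log2 fold change 0.13). A count of 1 in 61 is near the background of 1.26% of all tested genes (0.674% lower). The one that fell was Gsta4, a glutathione S-transferase that conjugates the lipid peroxidation product 4-hydroxynonenal. It had 14.9, 18.5, 15.1 and 19.4 CPM in the DSS libraries and 5.09, 2.96, 1.55 and 3.77 CPM in the diet-alcohol libraries. The groups did not overlap, and Gsta4 was 4.99-fold lower with diet and alcohol (log2 fold change -2.32 ± 0.33, edgeR adjusted p = 0.00657), a call that held in each of the 19 alternatives (adjusted p up to 0.0368). Of the 11 tested genes in its list of other NRF2 target enzymes and transporters, 8 had negative values, with a median of -0.45.

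Among the NRF2 regulators 0 of 8 passed. Bach1, a repressor that competes with NRF2 and is released by heme, had 5.82 to 7.75 CPM in the DSS group and 8.17 to 20.0 CPM in the diet-alcohol group, without overlap (log2 fold change 0.84, edgeR adjusted p = 0.258). Mafk, a small MAF partner, stood at 0.48 (adjusted p = 0.519). Of 7 tested genes of glutathione supply and recycling none passed. Cth, which makes cysteine from cystathionine, stood at -0.93 (edgeR adjusted p = 0.376), where library 71, at 237 CPM, lay within the DSS range of 196 to 315 CPM and libraries 35, 45 and 65 lay below it, at 67.2 to 111 CPM. Without library 71 it passed (-1.49, edgeR adjusted p = 0.0422, against up to 0.739 in other alternatives). Gsr, glutathione reductase, stood at 0.45 (adjusted p = 0.464). The cystine importer gene Slc7a11, a common NRF2 target, had 6 counts in all 8 libraries together and was not tested.

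None of 10 genes of thioredoxins and peroxiredoxins passed, and 8 had positive values (median 0.16), as did 5804 of all 11729 tested genes. With the mitochondrial share as a covariate, Prdx3 turned to -0.03, Prdx5 to -0.01 and Prdx6 to -0.30. Prdx1 went from 0.41 to 0.05 and Prdx2 from 0.28 to 0.06, while Txn2 was 0.25 or more in all 19 alternatives. Mitochondrial thioredoxin, Txn2, stood at 0.41 and the endoplasmic reticulum peroxiredoxin Prdx4 at -0.53 (edgeR adjusted p = 0.527 and 0.541). Of 7 tested genes of superoxide and peroxide removal none passed. Gpx3, the secreted glutathione peroxidase, had 7.22 to 13.6 CPM in the DSS group and 16.4 to 60.3 CPM in the diet-alcohol group, without overlap (log2 fold change 1.56 ± 0.39, edgeR adjusted p = 0.0924). It passed with DESeq2 (adjusted p = 0.00785), without a filter on low counts (0.0143), with the mitochondrial covariate (0.0306, log2 fold change 2.02) and without library 71 (0.0497), and had an adjusted p of up to 0.318 in other alternatives. Gpx4, which reduces lipid hydroperoxides in membranes, stood at 0.47 (adjusted p = 0.544).

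Of 6 genes of NADPH supply, which feeds glutathione and thioredoxin reductases, none passed. Pgd, of the pentose phosphate pathway, had 5.15 to 10.2 CPM in the DSS group and 15.9 to 21.6 CPM in the diet-alcohol group, without overlap (log2 fold change 1.11 ± 0.26, edgeR adjusted p = 0.0695). It passed with DESeq2 (adjusted p = 0.0143), without a filter (0.0468) and without library 35 (0.0217), and had an adjusted p of up to 0.271 in other alternatives. G6pdx, the first enzyme of that pathway, had 3.92 ± 2.0 CPM in the DSS group and 7.93 ± 2.74 CPM in the diet-alcohol group (SD, n = 4; edgeR adjusted p = 0.356).

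All 6 genes of heme breakdown and ferritin had positive values (median 0.45), and none passed. Of all 11729 tested genes, 5804 had positive values. With the mitochondrial share as a covariate, Hmox2 turned to -0.07 and Ftl1 went from 0.43 to 0.06, while the others stayed positive. Blvra, biliverdin reductase A, had 5.75 to 7.45 CPM in the DSS group and 8.48 to 14.8 CPM in the diet-alcohol group, and the ferritin heavy chain gene Fth1 had 667 to 802 and 839 to 1650.2 CPM. Both were without overlap (log2 fold change 0.88 and 0.71; edgeR adjusted p = 0.179 and 0.267). Of 6 genes of selenoprotein synthesis and transport none passed, with Selenop, the hepatic selenium carrier, at -0.65 and Pstk at 0.26 (edgeR adjusted p = 0.429 and 0.872).

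**Figure D5:**
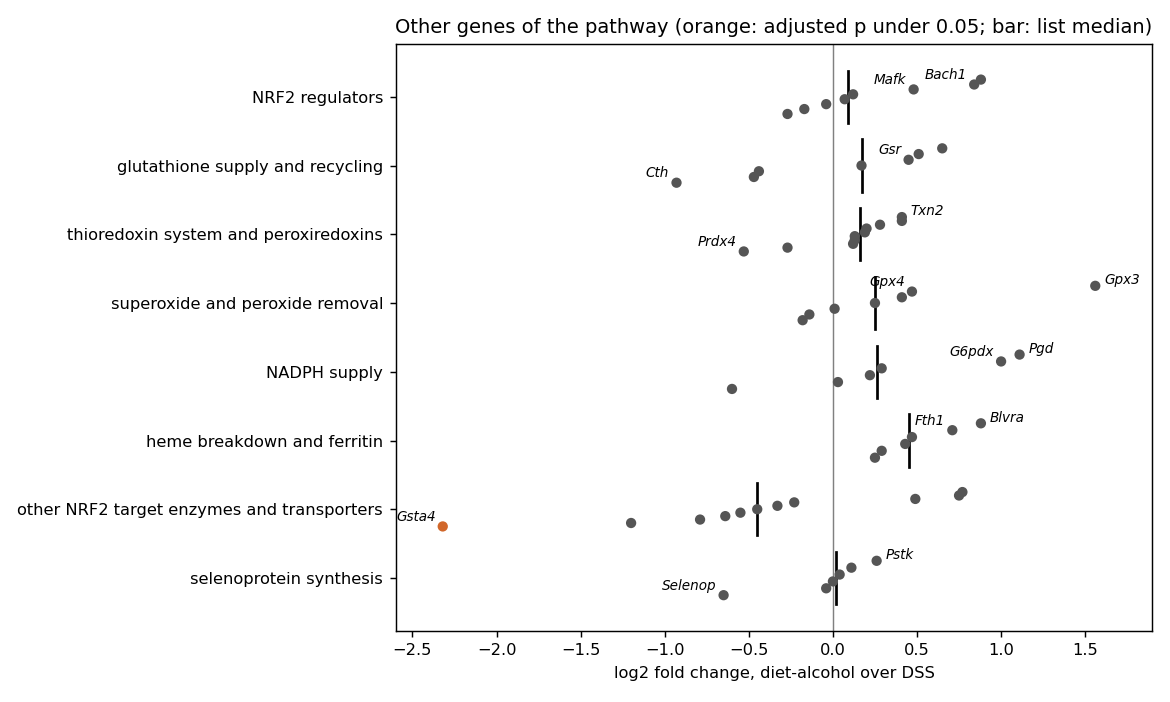
Log2 fold change, diet-alcohol over DSS (horizontal axis), of the 61 tested genes of the pathway lists, 1 point per gene; bars are list medians and orange marks an adjusted p under 0.05. Gsta4 (-2.32) is the only orange point. All 6 genes of heme breakdown and ferritin lie above 0 in this fit, which had no covariate.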

How the data were processed

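Liver RNA-seq from 8 libraries was deposited as 1 table. The authors deposited raw counts per gene and library and FPKM values, per the file headers; the FPKM were counts per deposited gene length and library scale. The deposited table also holds the authors' group means of normalized signal, log2 fold change, p-value and adjusted p-value. Builds GRCm38 and mm10 are named in the submitters' processing notes; for the aligner, the counter and strandedness, the setting is not given in the sources used here.

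The filter (filterByExpr), the normalization (TMM) and the test are those of edgeR 4.0.16 in R 4.3.3 (robust quasi-likelihood F test, Benjamini-Hochberg over 11729 genes, threshold 0.05, no covariate), and the code was tested on simulated data. In that simulation the test called 16.4% of the genes changed 2-fold, 71.6% of those changed 4-fold and 90.8% of those changed 8-fold. Most 2-fold changes were thus missed there. SE and 95% intervals come from the F statistic. Alternatives used DESeq2 1.42.0, limma 3.58.1 with pseudocounts of 1 and 0.1 on FPKM, other filters and normalizations, a non-robust fit, mitochondrial genes left out or their share as a covariate, and leaving out each library. The members and lists were chosen with earlier results of these data known. Named are all members and, per list, each gene past the threshold or otherwise the 2 with the smallest p. Slc7a11, which was not tested, and Ephx1 are named outside this rule, as are single markers, chosen after their values were seen. Hmox2, Ftl1, Prdx1, Prdx2, Prdx3, Prdx5 and Prdx6 are also named outside it, for their values in the fit with the mitochondrial share.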

Additional observations from a re-analysis of the deposited data

Results flagged for a closer look

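In 24 groups of 4 values, the 10 genes and 2 within-library ratios in each group, 3 held a library whose distance to its nearest neighbour took a share of the group's range above Dixon's 95% critical value; chance gives about 1 in 20. Gclm had 169 CPM in diet-alcohol library 35, where the other 3 ran from 63.6 to 77.6. Nqo1 had 12.5 CPM in the same library, where the other 3 ran from 1.21 to 2.30. Sod2 had 81.8 CPM in DSS library 48, where the other 3 ran from 72.8 to 74.3.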

How the results depend on the processing

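No paired analysis was possible because the groups share no library number. Of 190 values of the 10 genes under alternatives, 183 kept their sign and their side of the threshold. In the fit with the mitochondrial share the log2 fold change turned to -0.17 for Txnrd1, -0.12 for Srxn1 and -0.50 for Gpx1; without library 35 it turned to -0.48 for Nqo1 and 0.01 for Sod1, and without library 71 to -0.26 for Gpx1. Leaving out single libraries gave ranges of -0.48 to 1.02 for Nqo1, -0.27 to 0.01 for Sod1 and -0.26 to 0.38 for Gpx1. Gclc passed only without library 35. The count of members called was 0, or 0 to 1 when single libraries were left out. Over all genes 148 were called, 431 with DESeq2, 249 without a filter, 55 with the mitochondrial covariate, and 58 (without DSS 48) to 308 (without library 35) when single libraries were left out. Of the pathway lists 1 gene was called, 4 with DESeq2, 4 without a filter, 2 with the covariate and 1 to 4 when single libraries were left out. The cause of these moves was not tested. Nqo1, with 11 to 224 counts, was the member most limited by depth.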

Other observations

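Superoxide dismutase transcripts were also set against each other within libraries, a ratio chosen after the values were seen and given without a test. Per length, Sod2 over Sod1 was 0.0592, 0.0771, 0.0639 and 0.0783 in DSS libraries 15, 48, 49 and 50, and 0.196, 0.0904, 0.0673 and 0.129 in diet-alcohol libraries 35, 45, 65 and 71. Libraries 35, 45 and 71 lay above the DSS range and library 65 within it. The mean log2 ratio differed by 0.69, from 0.42 to 0.93 when each library was left out.

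Ephx1, a microsomal epoxide hydrolase named after its values were seen, had 58.7, 91.0, 77.6 and 77.8 CPM in the DSS libraries and 53.1, 26.6, 19.4 and 33.5 CPM in the diet-alcohol libraries, without overlap. Its log2 fold change was -1.20 ± 0.30 (edgeR adjusted p = 0.0924), and it passed with DESeq2 (adjusted p = 0.0105), without a filter on low counts (0.0185) and without library 35 (0.00275), with an adjusted p of up to 0.31 in other alternatives.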
